A study of Mus musculus with 6 samples.

Results

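Genes for collagen chains, laminin chains and other proteins of the extracellular matrix, with a few genes that mark the stromal cells which make it, were compared between control mouse islets and islets in which floxed Neurod1 was targeted by a beta cell Cre. The rule takes genes by symbol and uses no measured value, although it was written with earlier results of these data known. It takes every collagen chain gene, every laminin alpha, beta and gamma chain gene, Nid1, Nid2, Hspg2, Agrn, Sparc, Fn1, Dcn, Lum, Postn, Thy1, Pdgfra, Pdgfrb, Acta2 and Tagln. This gave 68 of the 23284 genes in the files, and 59 of them had enough counts to be tested. These 68 are called the matrix genes below. Matrix genes outside the rule, in a separate list, are called other matrix genes. Fibrillar collagen genes (11, of which 8 were tested) were set against basement membrane genes (21, of which 20 were tested).

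Bulk RNA-seq had been made from pancreatic islets of mice aged 12 weeks, with 3 libraries in each of 2 groups. Knockout mice (libraries 4, 5 and 6) were Neurod1-floxed/floxed and carried Rip-Cre, a Cre recombinase under the rat insulin promoter, which is active in beta cells, and control mice (libraries 7, 10 and 16) were Neurod1-floxed/floxed with no Cre; the strain label of both is C56BL/J. Because controls lacked Cre, an effect of the Cre transgene and one of Neurod1 loss cannot be told apart. The labels do not say that the libraries are from different animals, so the p-values measure the spread between these libraries, which may be technical.

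Collagens are built of chains wound into triple helices. The fibrillar types form the fibrils of interstitial connective tissue and come mainly from fibroblasts and stellate cells, whereas basement membranes are thin sheets in which a collagen IV network and a laminin network are joined by nidogens and heparan sulfate proteoglycans. Islet capillaries are wrapped in basement membrane that touches the beta cells, and in the mouse it is made largely by the endothelial cells.

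Total counts ranged from 12206393 to 20412435 per library. Neurod1, the targeted gene, stood at 28.4, 29.8 and 31.3 CPM (counts in 1e+06, after scaling of library sizes by TMM factors) in knockout libraries 4, 5 and 6 and at 198, 177 and 141 CPM in control libraries 7, 10 and 16 (log2 fold change -2.53, SE 0.13, adjusted p = 1.74e-05). Ins2, an insulin gene, stood at 105221 to 119953 CPM in the 6 libraries and did not pass (0.03, adjusted p = 0.873), whereas Ins1, the other insulin gene, fell from 48668 ± 3300 to 4307 ± 1529 CPM (SD, n = 3; -3.50, SE 0.25, adjusted p = 1.27e-04). Of the 8 beta cell markers that hold both, 3 rose and 2 fell, where 11.8% of all genes rose and 12.6% fell. The summed share of 14 acinar genes was 1.18% to 4.08% of the counts in controls and 0.410% to 1.19% in knockouts.

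The matrix genes taken by the rule were mostly lower in knockout islets, and none of them was called higher. Of the 59 genes tested, 23 fell (edgeR quasi-likelihood test, adjusted p under 0.05 over all 14770 genes tested), whereas 12.6% of all genes fell and 11.8% rose. None of the 59 rose by edgeR, DESeq2 or limma-voom, and 1 had a higher level at an unadjusted p under 0.05. The log2 fold change was below 0 for 54 of the 59, and its median was -0.48, whereas 51% of all genes lay below 0 with a median of -0.01. All 3 knockout libraries lay below all 3 controls for 32 of the 59 genes, which held for 22% of all genes, and above them for 1, Col28a1, which held for 20% of all genes. In bulk islets, fewer cells of a type and less RNA per cell cannot be told apart. The 9 genes not tested, Col2a1, Col9a1, Col10a1, Col11a1, Col17a1, Col19a1, Col23a1, Col24a1 and Lama1, did not exceed 0.921 CPM in any library. Of those tested, Col8a2 reached the level that the filter asks for (0.634 CPM) in control libraries only.

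Other fits gave other counts, each beside its own background. By DESeq2 25 of the matrix genes fell (11.4% of all genes fell and 12.3% rose), by limma-voom 23 (12.2% and 11.3%), with upper-quartile scaling 25 (14.2% and 10.6%), with dispersions not robust 24 (12.6% and 11.5%) and with no filter 19 (8.41% and 10.3%). Leaving out knockout library 4, 5 or 6 gave 19, 22 and 13 matrix genes that fell, where 8.92%, 9.43% and 9.17% of all genes fell and 10.1%, 8.38% and 10.6% rose. Leaving out control library 7, 10 or 16 gave 26, 13 and 13, where 9.07%, 8.24% and 9.55% of all genes fell and 8.84%, 7.75% and 9.29% rose. None of the 68 genes taken by the rule rose in any of these fits.

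**Figure D1:**
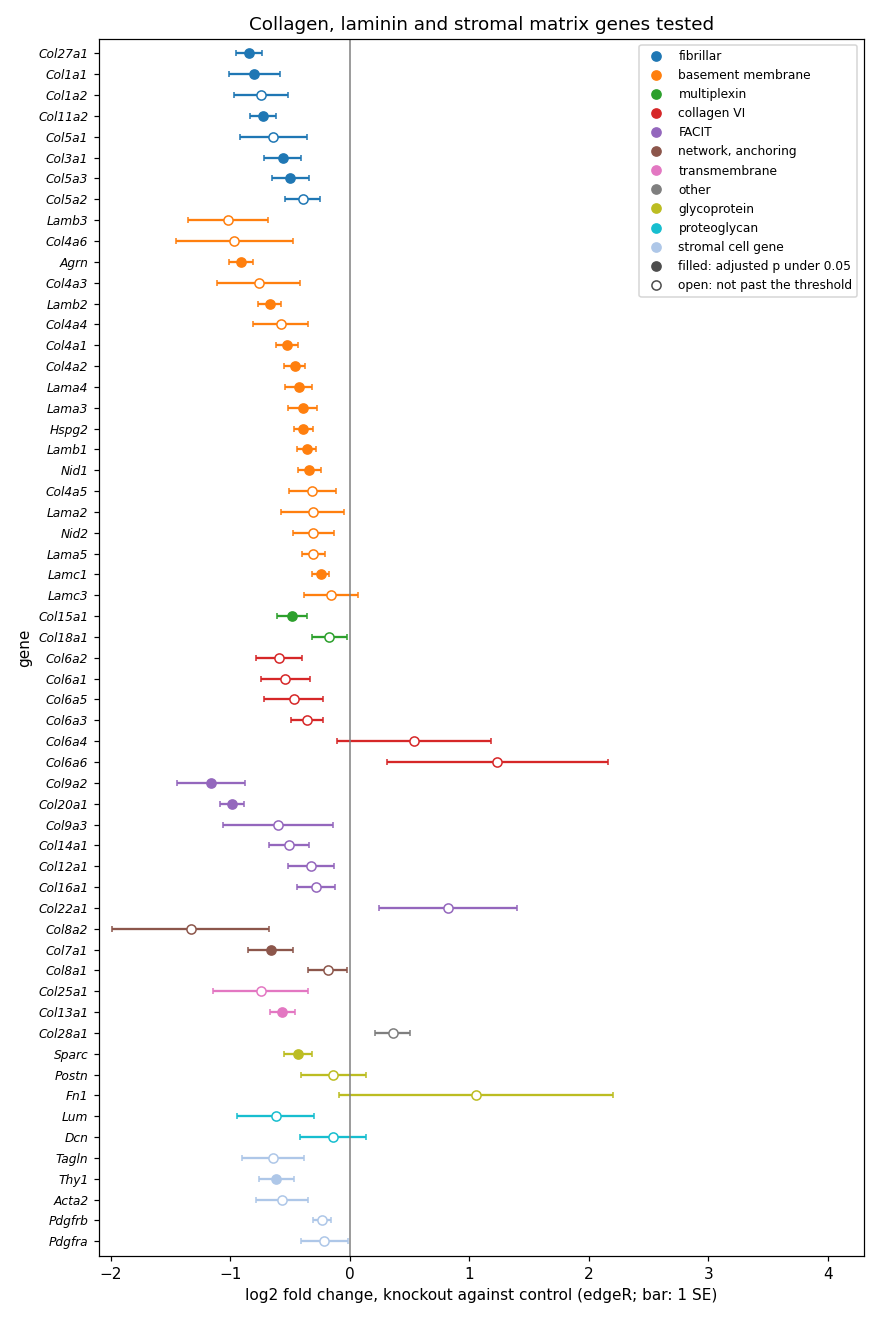
Log2 fold change of knockout against control for 58 of the 59 matrix genes tested, by class (x axis, edgeR; bars, 1 SE; filled points, adjusted p under 0.05). The filled points all lie left of 0, and the points right of 0 (Col6a4, Col6a6, Col22a1, Col28a1 and Fn1) are open.

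Levels of different genes were compared per kb of transcript. In control islets Sparc, a secreted collagen-binding glycoprotein, had the highest level at 140 ± 12.5 CPM per kb (SD, n = 3), above the collagen IV chain Col4a1 at 56.9 ± 2.16 CPM per kb. Col4a1 and the fibrillar chain Col3a1 (52.5 ± 8.65 CPM per kb) were within their spread of each other. So were Dcn (38.3 ± 8.75), Col1a2 (35.7 ± 9.12) and Col4a2 (35.5 ± 0.494), all in CPM per kb, and Col1a1 followed at 26.3 ± 5.81 CPM per kb. Basement membrane genes varied less between control libraries than fibrillar ones: the median coefficient of variation over the 3 controls was 9.12% for the 20 basement membrane genes, 16.5% for the 8 fibrillar genes and 9.12% for all genes.

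Of the 8 fibrillar collagen genes tested, 5 fell, where 12.6% of all genes fell. All 8 log2 fold changes were below 0, from -0.85 to -0.40, with a median of -0.68. Col27a1 and Col11a2, fibrillar chains best known from cartilage, were the clearest of them. Col27a1 stood at 27.2, 24.2 and 23.1 CPM in control libraries 7, 10 and 16 and at 14.1, 12.7 and 14.7 CPM in knockout libraries 4, 5 and 6, so the groups were well apart; it fell by 0.85 on the log2 scale (SE 0.11, adjusted p = 8.89e-04), or 1.8-fold. Col11a2 went from 31.2, 29.3 and 35.4 CPM in controls to 18.1, 18.5 and 21.5 CPM in knockouts, again without overlap (-0.72, SE 0.11, adjusted p = 0.00210). Both stayed past the threshold without any 1 library.

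The windows just upstream of these genes are shown because they were the fibrillar genes with the smallest p. The files use genome build mm9, so the sequences are those of RefSeq for build GRCm38.p6, 250 bases that end just before the start of the transcript, at chr4:63215162-63215411 on the + strand for Col27a1 and chr17:34038888-34039137 on the + strand for Col11a2. Capitals mark the E-box CANNTG, the letters that basic helix-loop-helix factors such as Neurod1 bind, and the GC box GGGCGG or its reverse complement CCGCCC.
Col27a1: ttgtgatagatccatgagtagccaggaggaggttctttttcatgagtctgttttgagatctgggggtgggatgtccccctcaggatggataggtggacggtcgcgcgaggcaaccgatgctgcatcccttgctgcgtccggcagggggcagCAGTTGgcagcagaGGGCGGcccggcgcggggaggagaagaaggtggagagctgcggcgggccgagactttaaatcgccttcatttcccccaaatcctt
Col11a2: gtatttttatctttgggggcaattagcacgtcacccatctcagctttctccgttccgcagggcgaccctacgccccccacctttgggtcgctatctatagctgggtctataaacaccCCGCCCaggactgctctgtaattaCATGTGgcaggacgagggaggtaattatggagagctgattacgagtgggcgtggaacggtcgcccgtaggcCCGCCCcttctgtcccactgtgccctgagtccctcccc
Each window held 1 E-box, and GC boxes numbered 1 in Col27a1 and 2 in Col11a2.

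The genes for collagens I, III and V, which build most interstitial fibrils, were higher in level and more variable. Col3a1, the collagen III chain, stood at 238, 310 and 329 CPM in control libraries 7, 10 and 16 and at 222, 209 and 162 CPM in knockout libraries 4, 5 and 6. It fell by 0.56 on the log2 scale (SE 0.16, adjusted p = 0.0341), although control library 7 came close to knockout library 4. Col1a1, a collagen I chain, stood at 117, 170 and 181 CPM in controls and at 88.4, 108 and 71.4 CPM in knockouts and fell by 0.80 (SE 0.22, adjusted p = 0.0423). Here too the groups did not overlap, with control library 7 nearest to the knockouts.

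Its partner chain Col1a2 had the same order of libraries, 136, 206 and 230 CPM in controls against 121, 130 and 90.5 CPM in knockouts, but missed the threshold (-0.74, SE 0.23, adjusted p = 0.0633). Col1a2 passed by DESeq2 (adjusted p = 7.14e-04), by limma-voom (adjusted p = 0.0373) and with dispersions not estimated robustly (adjusted p = 0.0325). Col5a3, a collagen V chain, fell from 10.8 ± 1.49 to 7.65 ± 0.862 CPM (SD, n = 3; -0.50, SE 0.15, adjusted p = 0.0446) and did not pass by DESeq2 (adjusted p = 0.0751) or limma-voom (adjusted p = 0.0609). The other collagen V chains Col5a1 (-0.64, adjusted p = 0.15) and Col5a2 (-0.40, adjusted p = 0.0780) did not pass, and knockout and control values overlapped for both. The ratio of Col1a1 to Col1a2 per kb was 0.742 ± 0.0315 in controls and 0.708 ± 0.0489 in knockouts, with overlapping values.

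The number of fibrillar genes called changed with the libraries used. Without control library 7, all 8 fibrillar genes fell. Without knockout library 6 or control library 10 or 16, only Col11a2 and Col27a1 did, and without knockout library 4 a total of 3. Col1a1 lost its call without knockout 4 or 6 or control 10 or 16 (adjusted p = 0.142, 0.10, 0.126 and 0.102). Col3a1 lost it without knockout 5 or 6 or control 10 or 16 (adjusted p = 0.0739, 0.0789, 0.107 and 0.101). Col5a3 lost it without knockout 4 or 6 or control 10 or 16 (adjusted p = 0.132, 0.128, 0.142 and 0.126). Control library 7 was the lowest control for 6 of the 8 fibrillar genes, 10 of the 20 basement membrane genes and 30.8% of all genes. Its level over the mean of the other controls had a median of 0.744 for fibrillar genes, 0.954 for basement membrane genes and 1.01 for all genes, and was 1.15 for Col27a1 and 0.966 for Col11a2. The acinar share was 4.08%, 3.47% and 1.18% in control libraries 7, 10 and 16, where the fibrillar genes summed to 594, 805 and 865 CPM. A part of the acinar share in the low fibrillar levels of control library 7 was not tested.

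**Figure D2:**
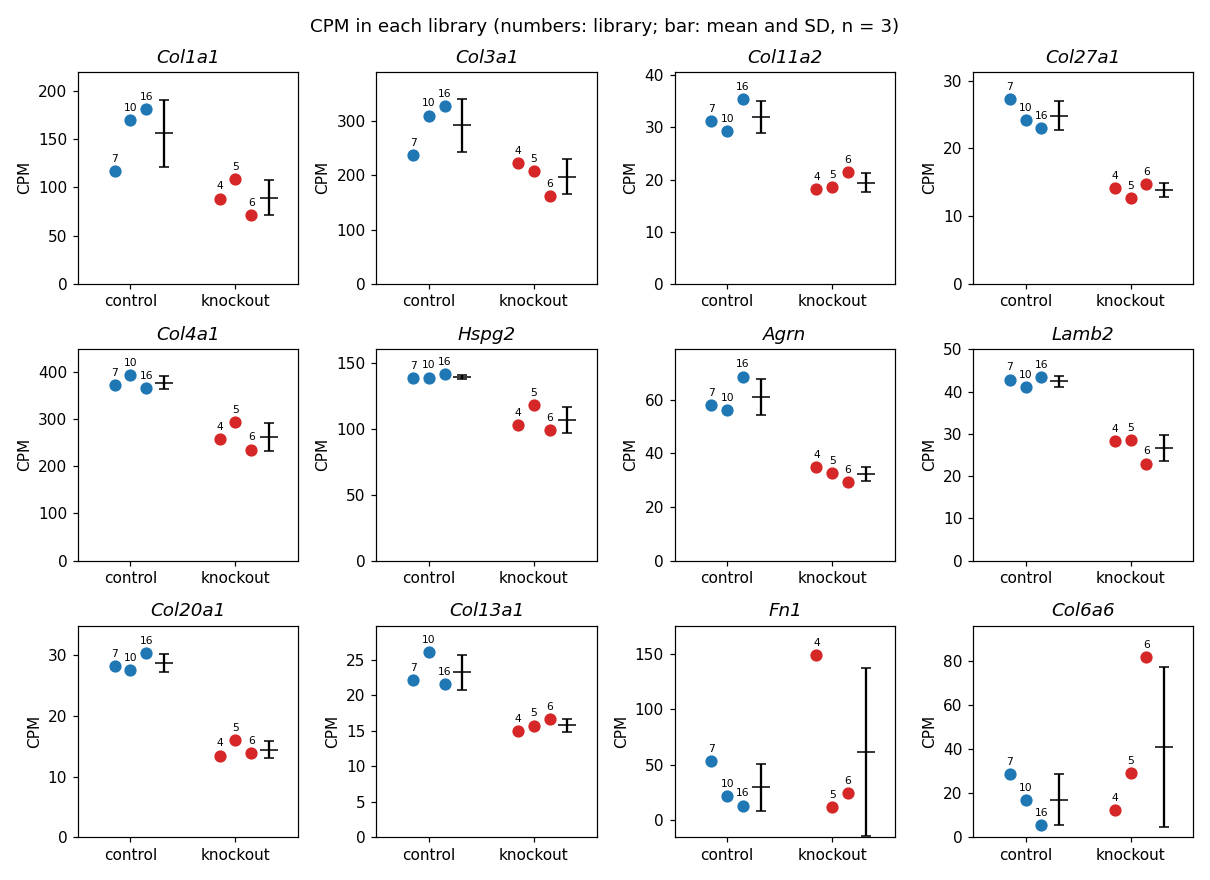
CPM of 12 matrix genes in each library (points, numbered by library; bars, mean and SD, n = 3 in each group). Control library 7 lies near the knockout points for Col1a1 and Col3a1 and not for Col11a2 or Col27a1, and 1 knockout library stands far above the rest for Fn1 (library 4) and Col6a6 (library 6).

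Of the 20 basement membrane genes tested, 11 fell, where 12.6% of all genes fell. All 20 log2 fold changes were below 0, from -1.02 to -0.16, with a median of -0.41. The collagen IV chains Col4a1 and Col4a2, which form the common network of vascular basement membranes, fell together. Col4a1 stood at 372, 393 and 365 CPM in control libraries 7, 10 and 16 and at 257, 293 and 235 CPM in knockout libraries 4, 5 and 6 (-0.52, SE 0.09, adjusted p = 0.00474). Col4a2 stood at 233, 227 and 228 CPM in controls and at 167, 185 and 147 CPM in knockouts (-0.46, SE 0.09, adjusted p = 0.00702). For both, control libraries were close to each other and every knockout library was lower. Their ratio per kb was 1.6 ± 0.0753 in controls and 1.53 ± 0.0291 in knockouts, and the values overlapped.

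Col4a1 and Col4a2 lie head to head and their first exons overlap, which is why the shared stretch is shown; it is the 22 bases at chr8:11312805-11312826 of GRCm38.p6, written on the + strand with its GC box in capitals.
Col4a1 and Col4a2 shared start: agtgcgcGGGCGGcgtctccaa
Since it is not stated whether counting used strand, reads in these bases cannot be told apart between both genes. The other collagen IV chains, which form the networks of specialised basement membranes, were low and none passed: Col4a3 (-0.76, adjusted p = 0.145), Col4a4 (-0.58, adjusted p = 0.0996), Col4a5 (-0.31, adjusted p = 0.276) and Col4a6 (-0.97, adjusted p = 0.186). Col4a4 and Col4a6 were nevertheless lower in every knockout library than in any control.

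Laminins are trimers of an alpha, a beta and a gamma chain. Of the 10 laminin chain genes tested, 6 fell (median -0.38 over the 10), where 12.6% of all genes fell. Lamb2, a beta chain of vascular and synaptic laminins, went from 42.9, 41.0 and 43.5 CPM to 28.4, 28.5 and 23.0 CPM (-0.67, SE 0.10, adjusted p = 0.00169). The controls were within a few CPM of each other and the knockouts well below.

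The widely used chains Lamb1 (49.9 ± 1.33 to 38.8 ± 3.37 CPM, -0.36, SE 0.08, adjusted p = 0.0119) and Lamc1 (83.6 ± 2.75 to 70.6 ± 5.11 CPM, -0.24, SE 0.07, adjusted p = 0.0380) fell by less. The endothelial alpha chain Lama4 fell from 33.3 ± 2.41 to 24.7 ± 3.36 CPM (-0.43, SE 0.11, adjusted p = 0.0246) and Lama3 from 25.8 ± 1.65 to 19.7 ± 3.18 CPM (-0.40, SE 0.12, adjusted p = 0.0485). Lama5, the other vascular alpha chain, missed the threshold (-0.31, SE 0.10, adjusted p = 0.0518), as did Lamb3 (-1.02, adjusted p = 0.0561), Lama2 (-0.31, adjusted p = 0.442) and Lamc3 (-0.16, adjusted p = 0.647). The beta chains thus moved by different amounts. The ratio of Lamb1 to Lamb2 per kb was 1.13, 1.22 and 1.09 in controls and 1.45, 1.32 and 1.5 in knockouts. Every knockout library lay above every control in this ratio, which was not tested.

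Agrn, the heparan sulfate proteoglycan agrin, had the smallest p of the basement membrane genes. It stood at 57.9, 56.2 and 68.6 CPM in control libraries 7, 10 and 16 and at 34.8, 32.6 and 29.4 CPM in knockout libraries 4, 5 and 6, which is 1.88-fold lower with no overlap (-0.91, SE 0.10, adjusted p = 4.03e-04). Hspg2, which codes for perlecan, varied little between controls (139, 139 and 142 CPM) and was lower in every knockout library (103, 118 and 98.9 CPM; -0.39, SE 0.08, adjusted p = 0.00773). Nid1, which bridges laminin and collagen IV, fell from 88.0 ± 7.44 to 69.4 ± 7.54 CPM (SD, n = 3; -0.34, SE 0.10, adjusted p = 0.0330). Nid2 did not pass (-0.31, SE 0.17, adjusted p = 0.238), and its knockout library 5 lay among the controls.

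The upstream windows of Agrn and Lamb2 are shown because of their small p among the basement membrane genes that fell. Both fell without overlap, and their windows differ in base composition. They end just before the annotated start (Agrn, chr4:156197489-156197738, - strand) or before the first exon of any transcript of the gene (Lamb2, 245 bases, chr9:108479612-108479856, + strand), from RefSeq for GRCm38.p6, with the same motifs in capitals.
Agrn: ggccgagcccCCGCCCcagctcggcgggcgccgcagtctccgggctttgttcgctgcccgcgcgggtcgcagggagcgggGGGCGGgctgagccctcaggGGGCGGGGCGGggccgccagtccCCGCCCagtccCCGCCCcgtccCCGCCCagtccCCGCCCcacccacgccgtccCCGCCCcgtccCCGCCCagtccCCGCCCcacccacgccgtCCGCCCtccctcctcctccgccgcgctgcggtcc
Lamb2: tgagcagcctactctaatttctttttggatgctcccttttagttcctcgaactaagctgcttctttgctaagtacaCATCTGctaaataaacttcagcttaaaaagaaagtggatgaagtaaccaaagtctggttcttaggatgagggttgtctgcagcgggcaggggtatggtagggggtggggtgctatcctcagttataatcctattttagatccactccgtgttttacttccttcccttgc
The Agrn window was 83.6% G and C with 12 GC boxes, of which a pair overlaps by a base, and no E-box; the Lamb2 window was 43.7% G and C with 1 E-box and no GC box. RefSeq sequences of 300 bases around the start, 250 before and 50 after, were at hand for 47 of the 68 genes. An E-box was found on either strand in 57.4% of those 47, in 58.8% of the 17 that fell, in 56.5% of the 23 tested that did not pass and in 72.1% of all 27025 promoters. A GC box was found in 59.6%, 64.7% and 65.2% of the same sets and in 35.9% of all promoters. Genes that fell and genes that did not pass thus held the E-box and the GC box in similar shares. The letters CCAAT, on either strand, were in 35.3% of the 17 and 30.4% of the 23, and in 37.9% of all promoters. The letters TATAAA were in 3 of the 17 and 0 of the 23, and in 14.2% of all promoters.

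With any 1 library left out, 8 to 10 of the 20 basement membrane genes fell, against 11 with all 6. A call without any 1 library was kept by 11 matrix genes, among them Agrn, Col4a1, Col4a2, Hspg2, Lamb1, Lamb2, Col11a2, Col27a1, Col13a1 and Col20a1. Lama4 lost its call without knockout 6 or control 7 or 10 (adjusted p = 0.0592, 0.0734 and 0.0895), and Nid1 without knockout 5 or 6 or control 10 or 16 (adjusted p = 0.0634, 0.0989, 0.116 and 0.0802). Lama3 passed only without knockout library 6 (adjusted p = 0.0180), and leaving out knockout library 4 or 5 gave 0.125 and 0.133, and leaving out control library 7, 10 or 16 gave 0.0749, 0.15 and 0.0878. Lamc1 lost its call without each library in turn (adjusted p = 0.0518, 0.0847 and 0.112 for knockout library 4, 5 or 6, and 0.133, 0.0838 and 0.0664 for control library 7, 10 or 16).

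The multiplexins are collagens of vascular and epithelial basement membranes that carry heparan or chondroitin sulfate chains. Col15a1 fell from 107, 108 and 118 CPM in controls to 87.9, 86.9 and 62.9 CPM in knockouts (-0.48, SE 0.12, adjusted p = 0.0251), without overlap, and lost its call without control library 7, 10 or 16 (adjusted p = 0.0588, 0.0666 and 0.0803). Col18a1, the source of endostatin, did not pass (14.7 ± 0.528 and 13.0 ± 2.69 CPM, -0.17, SE 0.15, adjusted p = 0.438). Added to the basement membrane genes, this pair left the median at -0.41.

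Collagen VI forms beaded filaments between the basement membrane and the interstitial matrix. Of its 6 chain genes, 0 passed by edgeR or limma-voom and 2 fell by DESeq2, where 12.6%, 12.2% and 11.4% of all genes fell. At an unadjusted p under 0.05, 3 were lower. Col6a1 (52.5 ± 10.2 and 35.9 ± 8.05 CPM, SD, n = 3; -0.54, SE 0.21) had an adjusted p of 0.105 by edgeR and 0.0253 by DESeq2, and Col6a2 (51.3 ± 11.8 and 33.8 ± 5.37 CPM; -0.59, SE 0.19) had 0.0687 and 0.00976. Control library 7 was at 41.8 CPM for Col6a1, below knockout library 4 at 41.9 CPM. Col6a6 differed more between libraries of a group than between groups, with 28.8, 16.8 and 5.69 CPM in controls and 12.3, 28.9 and 81.7 CPM in knockouts (1.23, SE 0.93, adjusted p = 0.401). Its neighbour in the genome, Col6a5 (-0.47, adjusted p = 0.203), and the next gene beyond Col6a5, Col6a4 (0.54, adjusted p = 0.585), did not pass either.

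Among the FACIT collagens, which sit on the surface of fibrils, 2 of 7 fell, where 12.6% of all genes fell. Col20a1 had the smallest p of the 59 matrix genes tested. It stood at 28.2, 27.5 and 30.3 CPM in control libraries 7, 10 and 16 and at 13.4, 16 and 13.8 CPM in knockout libraries 4, 5 and 6, so that knockouts were close to each other at 1.98-fold below the controls (-0.99, SE 0.10, adjusted p = 2.87e-04). Col9a2, a collagen IX chain, was lower in level and fell from 5.67 ± 1.31 to 2.51 ± 0.838 CPM (-1.16, SE 0.29, adjusted p = 0.0187). Its call was lost without knockout 4 or 6 or control 16 (adjusted p = 0.0571, 0.0569 and 0.0659). Col14a1, the most abundant FACIT gene in CPM, did not pass (50.2 ± 10.1 and 35.1 ± 4.91 CPM, -0.51, SE 0.17, adjusted p = 0.0636), although it did by DESeq2 (adjusted p = 0.0195) and without control library 7 (adjusted p = 0.00942). Exons of Col9a3 share 464 bases with those of Tcfl5 on the other strand, so its counts are uncertain.

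Of the network and anchoring collagens, Col7a1, which forms the anchoring fibrils under epithelia, fell from 6.43 ± 0.698 to 4.06 ± 0.561 CPM (-0.66, SE 0.19, adjusted p = 0.0309). It passed only without knockout library 5 (adjusted p = 0.0337), while it was at 0.0978 and 0.0824 with knockout library 4 or 6 left out, and at 0.123, 0.0740 and 0.0550 with control library 7, 10 or 16 left out. Col8a1, a collagen VIII chain of vessel walls, did not pass (-0.19, SE 0.16, adjusted p = 0.440). Of the collagens that span the cell membrane, Col13a1, best known from the neuromuscular junction, went from 22.2, 26.1 and 21.5 CPM in controls to 14.9, 15.7 and 16.6 CPM in knockouts (-0.56, SE 0.11, adjusted p = 0.00611). Its groups did not overlap, and it passed without any 1 library. Col25a1 was near 1 CPM and did not pass (-0.75, SE 0.40, adjusted p = 0.207). Col28a1, a collagen found around nerves and Schwann cells, was the 1 gene of the 59 tested with every knockout library above every control. Its levels were 9.15, 10.2 and 8.03 CPM in knockouts and 6.66, 7.11 and 7.62 CPM in controls. It did not pass (0.36, SE 0.15, adjusted p = 0.106). Of 7 Schwann cell markers beside it, 1 rose, where 11.8% of all genes rose, and 6 had a log2 fold change below 0 (median -0.17). Their summed level was 41.2 to 43.0 CPM in controls and 37.3 to 48.2 CPM in knockouts. Their part in the Col28a1 level was not tested.

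Sparc, the matrix gene with the highest level per kb, fell from 292, 325 and 349 CPM in controls to 256, 260 and 200 CPM in knockouts (-0.43, SE 0.12, adjusted p = 0.0272). The groups did not overlap, and the call was lost without knockout 4 or 6 or control 10 or 16 (adjusted p = 0.0503, 0.0648, 0.0811 and 0.0891). Fn1, fibronectin, did not pass (1.06, SE 1.15, adjusted p = 0.561). Its level in knockout library 4 (148 CPM) was far above those in libraries 5 and 6 (11.7 and 24.5 CPM), and the controls had 53.6, 21.8 and 13.3 CPM. Without knockout library 4 its log2 fold change was -0.71 (adjusted p = 0.612). Fn1 exons share 816 bases with Apol7d on the other strand in the annotation used. Postn, periostin, was at 38.8 ± 4.51 and 35.4 ± 13.2 CPM and did not pass (-0.14, SE 0.27, adjusted p = 0.751).

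Neither small leucine-rich proteoglycan, a class that binds collagen fibrils and sets their width, passed, and neither did so by DESeq2, limma-voom or at an unadjusted p under 0.05. Dcn, decorin, was at 52.6, 83.3 and 66.0 CPM in controls and 83.9, 50.4 and 48.3 CPM in knockouts (-0.14, SE 0.28, adjusted p = 0.754), with 1 library high in each group. Its direction changed without knockout library 6 (0.01) or control library 10 (0.04). Its neighbour Lum, lumican, was at 13.8 CPM in control library 7 and at 29.7 and 28.1 CPM in libraries 10 and 16, against 12.9, 19.3 and 14.3 CPM in knockouts (-0.62, SE 0.32, adjusted p = 0.218). Without control library 7 it passed (-0.89, adjusted p = 0.0131).

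Of the 5 stromal cell genes 1 fell, where 12.6% of all genes fell. This was Thy1, a surface protein of fibroblasts, neurons and T cells. It went from 16.3, 24.2 and 19.6 CPM in controls to 13.8, 13.2 and 12.2 CPM in knockouts (-0.62, SE 0.15, adjusted p = 0.0172). Its call was lost without knockout 6 or control 10 (adjusted p = 0.0625 and 0.0542). Pdgfrb, the PDGF receptor of pericytes, was lower in every knockout library and missed the threshold (47.2 ± 2.36 and 40.2 ± 2.15 CPM, -0.23, SE 0.07, adjusted p = 0.0522), which it passed with upper-quartile scaling (adjusted p = 0.0289). Pdgfra, the receptor of fibroblasts, was at 9.96 ± 2.26 and 8.60 ± 1.61 CPM (-0.21, adjusted p = 0.477). Acta2 (-0.57, adjusted p = 0.0996) and Tagln (-0.64, adjusted p = 0.113), contractile genes of smooth muscle and activated stellate cells, did not pass, and exons of Tagln share 135 bases with Pcsk7 on the other strand. Both passed without knockout library 4 (adjusted p = 0.0259 for Acta2 and 0.0115 for Tagln).

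**Figure D3:**
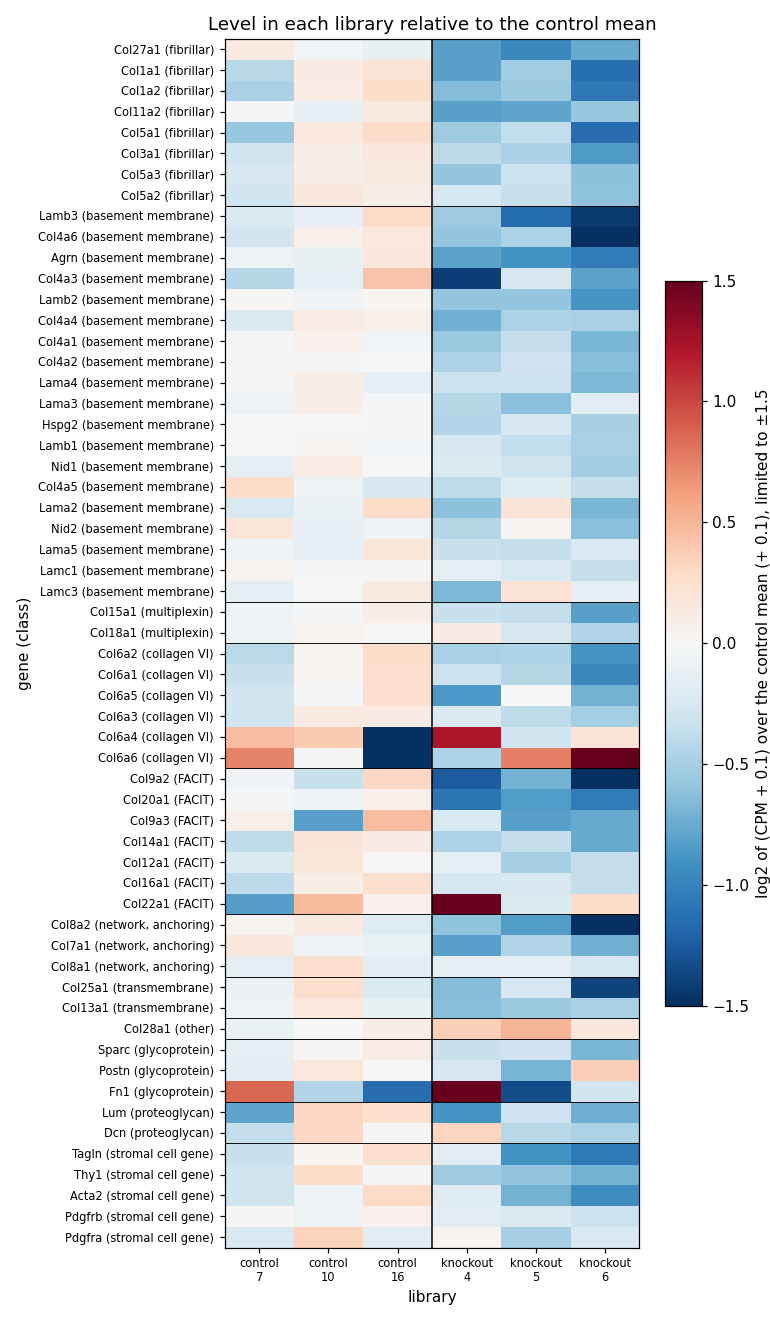
Level of 58 of the 59 tested genes in each library as log2 of CPM plus 0.1 over the control mean plus 0.1, by class, with colours limited to 1.5 in either direction. Blue runs through most of the knockout columns, control library 7 is paler or blue for most fibrillar and collagen VI genes, and Fn1, Col6a6 and Col6a4 differ between libraries of a group.

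Set against each other, fibrillar and basement membrane genes were both lower in knockout islets, and the ratio of their summed levels overlapped between groups. Fibrillar genes summed to 594, 805 and 865 CPM in control libraries 7, 10 and 16 and to 508, 525 and 393 CPM in knockout libraries 4, 5 and 6. Basement membrane genes summed to 1258, 1282 and 1277 CPM in controls and to 926, 1008 and 835 CPM in knockouts. Neither sum overlapped between groups. The ratio of the fibrillar to the basement membrane sum was 0.472, 0.628 and 0.677 in controls and 0.548, 0.521 and 0.471 in knockouts. Control library 7 was at the foot of that range with knockout library 6, so the groups overlapped. The log2 ratio was lower by 0.19 in knockouts, whereas the pooled SD between libraries was 0.21; with 1 library left out the difference ranged from -0.35 (without control library 7) to -0.09 (without control library 16). As the score was built over genes chosen for this comparison, no p is given.

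**Figure D4:**
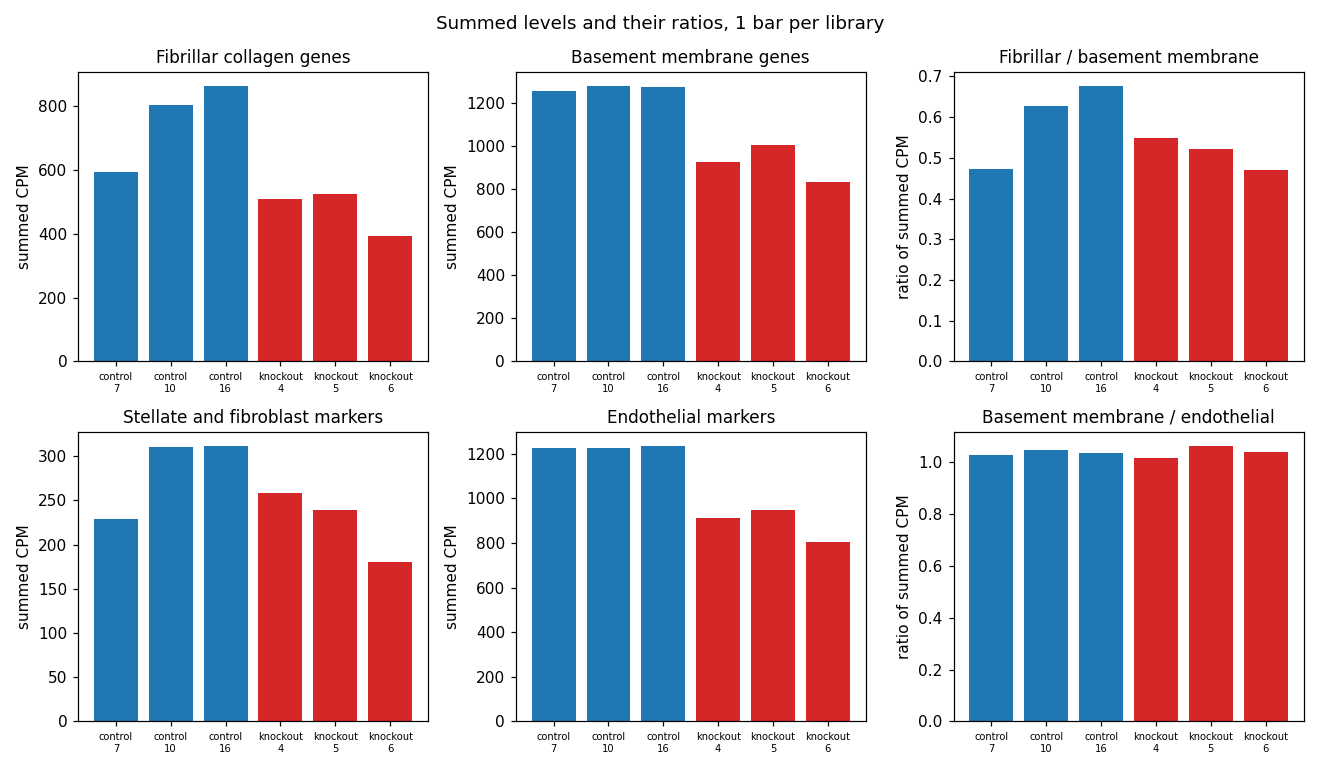
Summed CPM of the fibrillar and basement membrane genes and of 2 marker lists, and ratios of these sums, with 1 bar per library (blue, control; red, knockout). Both gene sums are lower in all 3 knockout libraries, the fibrillar to basement membrane ratio overlaps between groups, and the basement membrane to endothelial ratio lies between 1.01 and 1.06 throughout.

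Among markers of the cells that make these matrices, endothelial markers fell. No stellate cell or fibroblast marker passed, although 11 of the 12 tested had a log2 fold change below 0. Of 15 endothelial markers 10 fell (median -0.49), where 12.6% of all genes fell, and their summed level was 1224 to 1235 CPM in controls and 803 to 949 CPM in knockouts; Plvap went from 228 ± 3.41 to 162 ± 11.8 CPM and Kdr from 213 ± 18.4 to 157 ± 11.4 CPM. The basement membrane sum over the endothelial sum was 1.03, 1.05 and 1.03 in controls and 1.01, 1.06 and 1.04 in knockouts, so the groups overlapped. Col4a1 and Col4a2 made up much of this sum. Over the endothelial sum, this pair alone stood at 0.493 ± 0.0126 in controls and 0.481 ± 0.0210 in knockouts (SD, n = 3). The log2 fold changes of single basement membrane genes ranged from -1.02 to -0.16. With the endothelial marker level as a covariate, edgeR called 0 of the 59 genes lower (6 at an unadjusted p under 0.05) while 0.359% of all genes fell and 0.548% rose. That level does not overlap between the groups, so the 2 terms cannot be told apart in 6 libraries. The median of the fibrillar genes was 0.28 and that of the basement membrane genes -0.11 in this fit.

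Of 14 stellate cell and fibroblast markers, 12 were tested and 0 passed by edgeR, DESeq2 or limma-voom, where 12.6%, 11.4% and 12.2% of all genes fell. At an unadjusted p under 0.05, 1 was lower. The log2 fold change was below 0 for 11 of the 12 (median -0.40). Their summed level overlapped, at 229, 310 and 312 CPM in controls and 258, 239 and 181 CPM in knockouts, with control library 7 again the lowest control. Among these, Bgn (139 ± 27.9 and 102 ± 25.0 CPM) and Vim (69.9 ± 6.75 and 73.3 ± 35.9 CPM) were the most abundant, and Lrat and Twist1 stayed under 0.5 CPM in every library. The fibrillar sum over the sum of these markers was 2.60, 2.60 and 2.78 in controls and 1.97, 2.20 and 2.18 in knockouts, so every knockout library was lower. That separation depends on Vim, which stood at 115 CPM in knockout library 4 and at 50.1 and 55.1 CPM in knockout libraries 5 and 6. The part of the stellate and fibroblast markers in the fibrillar levels was not tested. Of 13 pericyte and smooth muscle markers 12 were tested and 3 fell (median -0.32), where 12.6% of all genes fell. Their sums overlapped (284 to 346 CPM in controls and 232 to 291 CPM in knockouts). Of 10 leukocyte markers, 0 passed by edgeR, DESeq2 or limma-voom and 1 was lower at an unadjusted p under 0.05. The log2 fold change was below 0 for 4 of the 10 (median 0.62). Leukocyte markers summed to 113 to 228 CPM in controls and 135 to 413 CPM in knockouts. Of 14 acinar markers 2 fell by edgeR, 12 by DESeq2 and 7 by limma-voom, where 12.6%, 11.4% and 12.2% of all genes fell. All 14 log2 fold changes were below 0 (median -1.85), with a summed level of 11661 to 41317 CPM in controls and 4143 to 12062 CPM in knockouts. With the acinar level as a covariate, 4 matrix genes fell (Agrn, Col20a1, Acta2 and Tagln), whereas 2.34% of all genes fell and 3.45% rose, and the medians were -0.90 for fibrillar and -0.44 for basement membrane genes. Mean log2 levels of the acinar markers do not overlap between groups.

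Genes that process collagen chains passed in both directions in shares near those of all genes. Of 29 genes for modifying, folding, cross-linking and cleaving collagens, 23 were tested, 3 rose and 3 fell (median -0.22), where 11.8% of all genes rose and 12.6% fell. The lysyl hydroxylase gene Plod1 fell from 47.1 ± 2.82 to 28.2 ± 2.93 CPM (SD, n = 3; -0.74, SE 0.09, adjusted p = 9.20e-04), while its relative Plod2 rose from 12.1 ± 0.565 to 19.3 ± 1.14 CPM (0.67, SE 0.10, adjusted p = 0.00201). Ppib, a prolyl isomerase of the endoplasmic reticulum, rose from 35.9 ± 0.869 to 57.4 ± 7.57 CPM (0.68, adjusted p = 0.00172), and P4hb, protein disulfide isomerase and a subunit of prolyl 4-hydroxylase, from 1083 ± 98.8 to 1576 ± 122 CPM (0.54, adjusted p = 0.00632). These 4 genes passed without any 1 library, and Ppib and P4hb also serve the folding of other secreted proteins. The number that fell was 1 without control library 16.

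Of 24 receptors for collagen, laminin and other matrix proteins, 2 rose and 5 fell (median -0.13), beside 11.8% and 12.6% of all genes. The syndecan Sdc4 rose from 37.0 ± 1.47 to 75.3 ± 9.73 CPM (1.02, SE 0.10, adjusted p = 1.89e-04), while the neuronal syndecan Sdc3 fell from 107 ± 6.80 to 64.2 ± 8.67 CPM (-0.73, SE 0.10, adjusted p = 0.00140). The integrin chains Itgb5 (-0.68, adjusted p = 6.81e-04) and Itga10, a collagen receptor (-0.99, adjusted p = 0.00202), fell. Another integrin chain, Itga2, rose from 2.38 ± 0.489 to 7.24 ± 2.40 CPM (1.59, SE 0.29, adjusted p = 0.00518). Each of these genes passed without any 1 library.

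Of 20 genes of the TGF-beta pathway, which drives matrix production in stromal cells, 0 rose and 7 fell by edgeR (median -0.36), beside 11.8% and 12.6% of all genes. DESeq2 and limma-voom also called 0 higher, where 12.3% and 11.3% of all genes rose, and 0 had a higher level at an unadjusted p under 0.05. The receptor Tgfbr1 fell from 97.0, 98.4 and 84.8 CPM in controls to 62.3, 62.7 and 63.8 CPM in knockouts (-0.57, SE 0.07, adjusted p = 0.00102), with knockouts very close to each other. The feedback gene Skil (-0.47, adjusted p = 0.00165) and the co-receptor Tgfbr3 (-0.59, adjusted p = 0.00994) fell and, like Tgfbr1, passed without any 1 library. Ltbp3, which holds latent TGF-beta in the matrix, fell (-0.35, adjusted p = 0.0148) and lost its call without knockout 4 or 6 or control 7 (adjusted p = 0.0654, 0.0529 and 0.0622). The count of 7 was 3 without control library 7.

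Of 36 other matrix genes, 2 rose and 10 fell (median -0.50), beside 11.8% and 12.6% of all genes. The matrilin gene Matn2, an adaptor of filament networks, stood at 61.9, 43.2 and 97.6 CPM in control libraries 7, 10 and 16 and at 931, 1321 and 991 CPM in knockout libraries 4, 5 and 6 (4.0, SE 0.35, adjusted p = 0.00117). Its level in each knockout library exceeded that of every fibrillar or basement membrane gene in CPM. Npnt, nephronectin, a basement membrane ligand of integrins, rose from 31.3 ± 1.42 to 69.8 ± 18.4 CPM (1.16, SE 0.18, adjusted p = 0.00429). Fras1, a protein of the epithelial basement membrane, fell from 30.3 ± 0.933 to 7.38 ± 1.77 CPM (-2.04, SE 0.15, adjusted p = 6.37e-05), and Vtn, vitronectin, from 43.2 ± 6.43 to 27.0 ± 1.61 CPM (-0.68, adjusted p = 0.00355). These 4 passed without any 1 library, while the number that fell was 6, 6 and 5 without knockout library 4, 5 or 6 in turn and 2 when control library 10 or 16 was left out.

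In the authors' deposited table, 16 of the 68 genes were lower at an adjusted p under 0.05 and 0 were higher, where 6.19% and 6.66% of the genes with an adjusted p in that table were lower and higher. All 16 also fell by edgeR.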

How the data were processed

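RNA from islets picked by hand after collagenase digestion was sequenced as single-end reads of 100 bp, per the labels' protocols. The deposited files hold raw counts of reads per gene, 1 file for each of 6 libraries. The authors' deposited table gives p-values, log2 fold changes, the fold as a ratio, and a mean signal (scaled count) per group. The submitters' processing notes name the build mm9 and the tools TopHat2 2.1.0, DESeq, Cufflinks 2.0.2 and bcl2fastq 1.8.4, without their roles. How reads were counted, on which gene models and with or without strand was not given in the sources used here.

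Groups were compared with edgeR 4.0.16 under R 4.3.3 (filterByExpr, minimum count 10, minimum total count 15, TMM factors, robust quasi-likelihood F test, Benjamini-Hochberg adjustment over 14770 of 23284 genes, threshold 0.05). Adjusted p-values are from this fit unless another tool is named. CPM are counts per 1e+06 after TMM scaling; per kb values use the longest protein-coding transcript of GENCODE for GRCm38. Intervals between libraries are SD with 3 libraries per group, and depth limits genes near 0.634 CPM. On counts simulated for this comparison over 14610 genes, 100 genes were changed at each fold. Of these, 44% at 1.5-fold and 72% at 2-fold were recovered, and 10.8% of calls were false. In the real data 24.4% of all genes were called, so these shares need not carry over.

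The genes, classes and lists were chosen with earlier results of these data known, so their counts are descriptions. Named were all matrix genes past the threshold, the 2 most abundant of each class (4 for the fibrillar and basement membrane classes), the largest change in each direction at 1 CPM or more, the 4 smallest p past the threshold in each pathway list (or the 2 most abundant), and the 2 most abundant markers of each list. Some genes that this rule selects are not reported here. Genes named beyond these were chosen after their values were seen. Of the marker lists not given in the results above, 1 of 1 tested mesothelial marker fell and 4 of 7 duct markers fell. Of 6 mesothelial markers listed, 5 were found by symbol and 4 of those had too few counts to be tested, so that list rests on 1 gene. Of all genes, 12.6% fell and 11.8% rose. Alternatives were upper-quartile scaling, DESeq2 1.42.0, voom of limma 3.58.1, dispersions not robust, no filter, acinar or endothelial marker level as a covariate, and leaving out each library.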

Additional observations from a re-analysis of the deposited data

How the results depend on the processing

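No paired analysis was possible because the groups share no replicate numbers. The number of the 68 matrix genes of the rule called higher was 0 in every alternative. Upper-quartile scaling, DESeq2, limma-voom and dispersions not robust gave 23 to 25 matrix genes lower, against 23, and without the filter 19 were lower, with 3 fibrillar genes instead of 5. With the acinar covariate 4 matrix genes, 0 fibrillar and 1 basement membrane gene were lower, the fibrillar median was -0.90 and Fn1 was at -1.76. With the endothelial covariate the counts were 0, 0 and 0, the fibrillar median was 0.28 and the basement membrane median -0.11. In that fit the direction changed for Col14a1 (0.32), Col15a1 (0.31), Col18a1 (0.53), Col1a1 (0.25), Col1a2 (0.38), Col25a1 (0.82), Col3a1 (0.34), Col6a1 (0.69), Col6a2 (0.41), Col6a6 (-3.10), Col8a1 (0.092), Dcn (0.88), Lama4 (0.084), Lum (0.17), Nid1 (0.19) and Sparc (0.28); none of these passed, and the cause was not tested.

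With 1 library left out, 13 to 26 matrix genes, 2 to 8 fibrillar genes and 8 to 10 basement membrane genes were lower, and the medians ranged from -0.75 to -0.51 for fibrillar and from -0.54 to -0.35 for basement membrane genes. The count of 13 came without knockout library 6 or control library 10 or 16. Dcn ranged from -0.43 to 0.042, where it was above 0 without knockout library 6 or control library 10, and Fn1 from -0.71 without knockout library 4 to 1.8 without control library 7. With 3 libraries in a group, 1.5-fold changes were often missed in the simulation, and levels under 1 CPM carry few counts.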
